A study of Mus musculus with 15 samples.

Results

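Peroxisome biogenesis and peroxisomal oxidation are described here by 31 genes measured in mouse hearts. The genes were taken by name. Each is given by the brightest probe whose gene name on the array equals the symbol or, for Pex2 and Eci2, the older names Pxmp3 and Peci. All 31 were measured, out of 41174 distinct probes on the array, and all 31 passed the filter on dim probes. On each of the 15 arrays their heart signal was well above background. None was saturated.

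Whole-heart RNA came from 5 rosiglitazone-treated db/db mice, 5 untreated db/db mice and 5 db/+ mice. The db/db mice are homozygous for the db allele of the leptin receptor on a C57BL/KLS background, in every cell of the body, and are obese and insulin resistant. Their db/+ littermates are heterozygous and served as controls. Treated mice received rosiglitazone, an agonist of the nuclear receptor PPAR gamma, at 5 mg/kg per day in their chow for 4 months, and the other mice ate chow without it. The age at the start is not given in the sources used here. The heart RNA carried Cy5 and was hybridised with a common Universal mouse reference RNA carrying Cy3, and values are log2 ratios of heart to reference. Each difference is the mean of the first group named minus that of the second. The comparison of treated with untreated db/db hearts asks what the drug changes, and that of untreated db/db with db/+ hearts what the diabetic state changes. Treated db/db and db/+ hearts differ in both genotype and drug, which that comparison cannot tell apart. Any of the 3 comparisons shares a group with each of the others.

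Median signals of the heart channel ran from 235 to 303 on the treated db/db arrays, from 185 to 263 on the untreated db/db arrays and from 159 to 256 on the db/+ arrays. The heart channels of treated replicates 3 and 4 differed less than the common reference did in 99 of 105 pairs of arrays, and they were counted as 1 sample, which leaves 4 treated samples. All 10 cardiomyocyte markers were well above background on every array and none passed the test in any comparison. Of 15 measured hepatocyte markers, the summed heart signal ran from 3349 to 14670 on the treated db/db arrays, from 2850 to 174471 on the untreated db/db arrays and from 1145 to 2477 on the db/+ arrays. The brightest probe of the leptin receptor was well above background on 1 treated db/db, 3 untreated db/db and 3 db/+ arrays of 5 each and was not tested, so it does not check the labels. In whole-heart RNA, a change in the number of cells of a type and a change in RNA per cell cannot be told apart.

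Peroxisomes are membrane-bound organelles that shorten very long-chain, branched and dicarboxylic fatty acids by beta-oxidation and pass the shortened products on to mitochondria. Their first oxidation step makes hydrogen peroxide, which catalase breaks down inside the same organelle. Matrix proteins are carried in by the receptors Pex5 and Pex7, and Pex11 proteins elongate and divide existing peroxisomes. In rodent liver, agonists of PPAR alpha raise many of these genes together and enlarge the peroxisome pool. Heart peroxisomes are small and few beside those of liver.

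A set of 10 peroxisomal genes was called higher in db/db than in db/+ hearts, 9 of them in both db/db groups. No gene passed the test between treated and untreated db/db hearts. With slide as a block in the fit, no gene of the 31 passed in any comparison. In treated db/db against db/+ hearts, 10 of the 31 genes rose and none fell, where 4.41% of all 27593 tested probes rose and 4.14% fell. In untreated db/db against db/+ hearts, 9 rose and none fell, where 4.28% of all tested probes rose and 3.33% fell. The 9 were among the 10. None of the 31 passed in treated against untreated db/db hearts, where 0% of all tested probes passed. A gene was called at an adjusted p under 0.05 in limma's test across all tested probes. Leaving out single arrays gave 6 to 10 genes in treated db/db against db/+ hearts, with 6 without treated replicate 1 or 5, and 6 to 12 in untreated db/db against db/+ hearts.

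The 10 genes are Pex11a and Pex16 among the biogenesis genes, Abcd3 and Pxmp4 in the membrane, Ehhadh, Acox3, Hsd17b4, Acaa1a and Eci2 in beta-oxidation, and Cat. The median log2 difference over the 31 genes was 0.27 in treated db/db against db/+ hearts, against 0.0064 over all tested probes. It was 0.22 in untreated db/db against db/+ hearts, against 0.011 over all tested probes. Without regard to the test, 28 of 31 means were above the db/+ mean in treated db/db hearts and 26 of 31 in untreated db/db hearts. Groups did not overlap for 14 genes in treated db/db against db/+ hearts, all higher, as for 7.56% of all tested probes, and for 10 genes in untreated db/db against db/+ hearts, as for 4.29%.

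**Figure D1:**
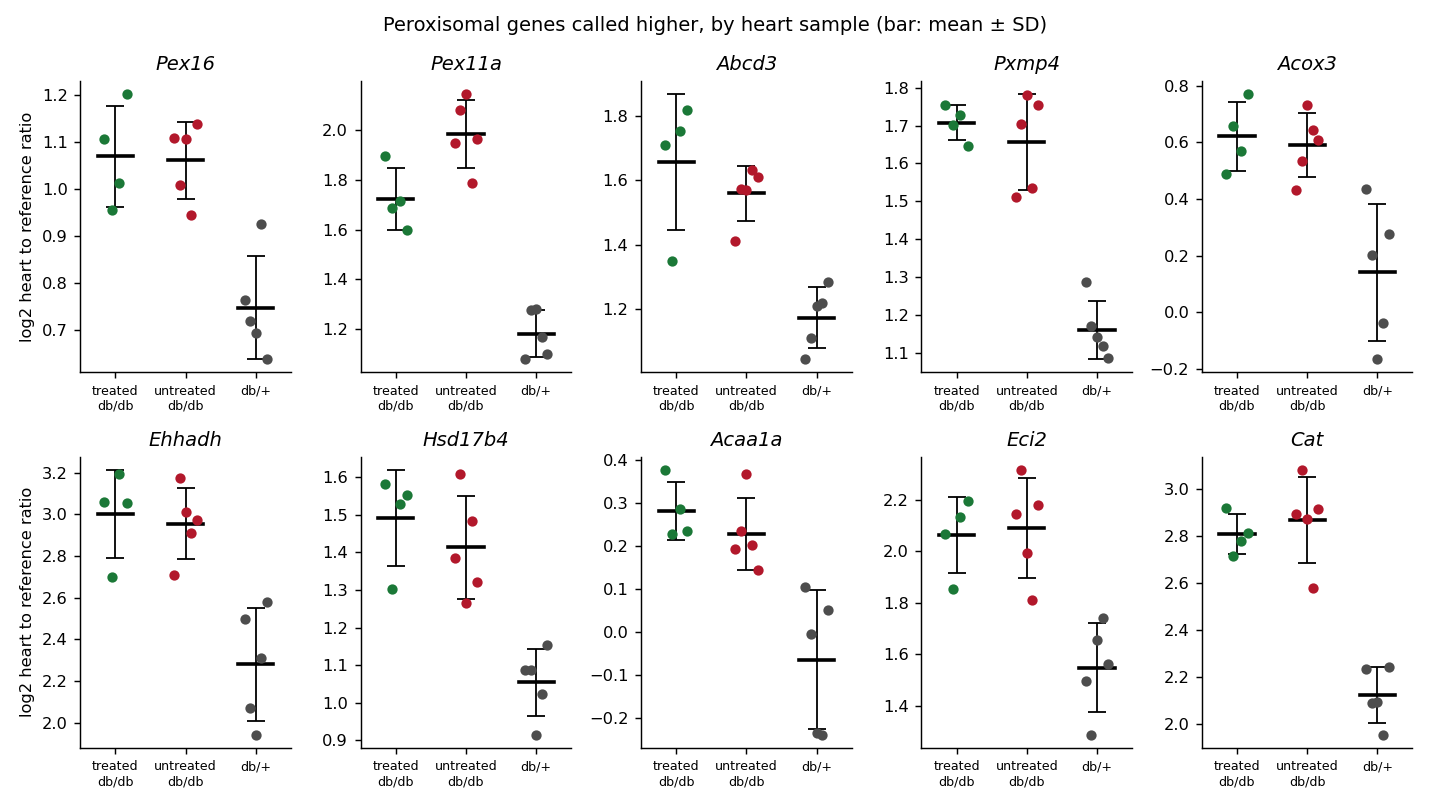
Log2 heart to reference ratio (vertical axis, a separate scale for each gene) of the 10 called genes in treated db/db, untreated db/db and db/+ hearts. Points are samples, with the treated replicates 3 and 4 averaged, and bars give the mean ± SD. Except for Acox3 in untreated db/db hearts, every db/db sample lies above every db/+ sample.

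The gene of the list that drives peroxisome division rose most in untreated db/db hearts. Pex11a, a membrane protein that elongates peroxisomes before they divide, had log2 ratios of 1.90, 1.69, 1.60 and 1.71 in treated db/db hearts, of 1.95, 2.08, 2.15, 1.79 and 1.97 in untreated db/db hearts and of 1.08, 1.28, 1.28, 1.17 and 1.1 in db/+ hearts. All db/db hearts were above all db/+ hearts, and the treated hearts lay mostly below the untreated ones. The log2 difference was 0.54 (SE 0.10) in treated db/db against db/+ hearts, 1.46-fold, with an adjusted p of 0.005. It was 0.80 (SE 0.09) in untreated db/db against db/+ hearts, 1.75-fold, with an adjusted p of 0.00025. The probe, at chr7:79610850-79610909 in the mm8 build of the files, was printed in 10 spots on each array.

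Pex11a was also the 1 gene of the 31 with an unadjusted p under 0.05 between the db/db groups, where 8.76% of all tested probes had such a p. Its log2 difference was -0.26 in treated against untreated db/db hearts (95% interval -0.47 to -0.06, unadjusted p = 0.016), and the adjusted p was 0.47. With slide as a block in the fit, this difference was -0.08 (unadjusted p = 0.56). The value in treated replicate 1, 1.90, lay inside the untreated range.

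Cat, the peroxisomal catalase that turns hydrogen peroxide into water and oxygen, was higher in all db/db hearts than in any db/+ heart. Its log2 ratios were 2.92, 2.72, 2.81 and 2.78 in treated db/db hearts, 2.89, 3.08, 2.87, 2.58 and 2.91 in untreated db/db hearts and 2.23, 2.09, 2.09, 1.95 and 2.24 in db/+ hearts. The group means were 2.81 ± 0.09 in treated db/db hearts (SD, n = 4), 2.87 ± 0.18 in untreated db/db hearts and 2.12 ± 0.12 in db/+ hearts (SD, n = 5 each). Its probe lies at chr2:103255342-103255401 (mm8). Cat rose 1.61-fold in treated db/db against db/+ hearts (adjusted p = 0.0021) and 1.68-fold in untreated db/db against db/+ hearts (adjusted p = 0.0008).

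Of the 25 genes of the list with a promoter window, only Cat had a match to the PPAR element there. The element, a direct repeat of AGGTCA with 1 free base between the copies, was searched on both strands, with at most 2 mismatches over 12 fixed bases, in RefSeq windows of 250 bases before to 50 after each start (GRCm38.p6). Such windows existed for 25 of the 31 genes. The 100 bases of Cat at -250 to -151 from the start, at chr2:103485304-103485403 on the minus strand, are shown because they hold this match, which is in capitals:
Cat: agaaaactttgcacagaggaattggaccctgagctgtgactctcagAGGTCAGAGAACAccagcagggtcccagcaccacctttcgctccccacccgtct
The matched bases lie at -204 to -192 from the start. Of the 29 windows of the 25 genes, 1 held a match as close as this, as did 3.86% of all 32851 windows. The search says nothing of elements outside the window.

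Ehhadh encodes the bifunctional protein that hydrates and dehydrogenates fatty acyl-CoA in peroxisomes and is needed for dicarboxylic acids. It had log2 ratios of 3.06, 2.70, 3.06 and 3.19 in treated db/db hearts, of 2.71, 3.17, 3.01, 2.91 and 2.97 in untreated db/db hearts and of 2.50, 2.07, 1.94, 2.31 and 2.58 in db/+ hearts. The db/+ hearts stayed below all db/db hearts, but their spread was wide and the nearest values lay close together. Ehhadh rose by 0.72 (SE 0.15) on the log2 scale in treated db/db against db/+ hearts, with an adjusted p of 0.011, and by 0.68 (SE 0.14) in untreated db/db against db/+ hearts, with an adjusted p of 0.012. With normexp background correction the differences from db/+ hearts were 1.35 in treated and 1.38 in untreated db/db hearts, and both passed.

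Other steps of the spiral showed smaller rises. Acox3, an acyl-CoA oxidase for branched substrates that makes hydrogen peroxide, had log2 ratios of 0.49, 0.66, 0.77 and 0.57 in treated db/db hearts, of 0.43, 0.54, 0.73, 0.64 and 0.61 in untreated db/db hearts and of 0.43, 0.20, -0.16, -0.04 and 0.28 in db/+ hearts. Here the lowest untreated db/db heart met the highest db/+ heart. Acox3 rose 1.39-fold in treated db/db against db/+ hearts (adjusted p = 0.029) and 1.36-fold in untreated db/db against db/+ hearts (adjusted p = 0.032). The first call was lost without treated replicate 2 or 5 or db/+ replicate 4, and the second without untreated replicate 3, 4 or 5 or db/+ replicate 3 or 4, with adjusted p up to 0.073 and 0.080. Both were lost in fits on the compared groups alone (adjusted p = 0.068 and 0.079) and the second with array weights (adjusted p = 0.056).

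Hsd17b4, the second bifunctional enzyme, which handles very long-chain and branched acyl-CoA, had log2 ratios of 1.58, 1.30, 1.55 and 1.53 in treated db/db hearts, of 1.39, 1.61, 1.27, 1.48 and 1.32 in untreated db/db hearts and of 1.09, 1.09, 0.92, 1.02 and 1.15 in db/+ hearts. No db/db heart overlapped a db/+ heart. Hsd17b4 rose 1.35-fold in treated db/db against db/+ hearts (adjusted p = 0.015) and 1.28-fold in untreated db/db against db/+ hearts (adjusted p = 0.029). The first call was lost without treated replicate 1, and the second without untreated replicate 1, 2 or 4 or db/+ replicate 3 or 4, with adjusted p up to 0.051 and 0.065. The second was also lost with ratios scaled between arrays, with array weights and in a fit on the compared groups alone (adjusted p = 0.069, 0.069 and 0.070).

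The last step is thiolysis, by Acaa1a, Acaa1b and Scp2. Acaa1a had log2 ratios of 0.38, 0.23, 0.24 and 0.29 in treated db/db hearts, of 0.19, 0.24, 0.37, 0.20 and 0.14 in untreated db/db hearts and of 0.11, -0.0039, -0.23, -0.24 and 0.05 in db/+ hearts. All db/db hearts were above all db/+ hearts, by little. It rose 1.27-fold in treated db/db against db/+ hearts (adjusted p = 0.038), while in untreated db/db against db/+ hearts the difference of 0.29 missed the threshold (adjusted p = 0.059, or 0.034 without db/+ replicate 1). The call was lost without treated replicate 1, 2 or 5 or db/+ replicate 3 or 4 (adjusted p up to 0.11) and in a fit on the compared groups alone (adjusted p = 0.085), and its second probe had a difference of 0.22 there (adjusted p = 0.19) and rose by 0.48 in untreated db/db against db/+ hearts. Its close paralogue Acaa1b had a larger difference of 0.61 in untreated db/db against db/+ hearts with all samples higher, but a wide spread (SE 0.17) and an adjusted p of 0.051, which was 0.039 without db/+ replicate 1 or untreated replicate 4. In treated db/db against db/+ hearts the Acaa1b difference was 0.34 (adjusted p = 0.26). Whether the probes of these similar genes bind each other's RNA was not tested. Scp2, the thiolase for branched chains and sterol carrier, had differences from db/+ hearts of 0.24 in treated and 0.14 in untreated db/db hearts that did not pass.

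Among the auxiliary enzymes of the pathway, 1 of 4 rose. Eci2, which shifts double bonds of unsaturated acyl-CoA, had log2 ratios of 2.07, 1.85, 2.19 and 2.13 in treated db/db hearts, of 2.14, 2.32, 1.99, 1.81 and 2.18 in untreated db/db hearts and of 1.50, 1.29, 1.65, 1.74 and 1.56 in db/+ hearts. Both db/db groups stayed above the db/+ range. Eci2 rose 1.43-fold in treated db/db against db/+ hearts (adjusted p = 0.022) and 1.45-fold in untreated db/db against db/+ hearts (adjusted p = 0.014). The first call was lost without treated replicate 1 or 5 (adjusted p = 0.059 and 0.067).

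Amacr, the racemase that prepares branched acyl-CoA, exceeded all db/+ hearts in all treated hearts, with a log2 difference of 0.28 and an adjusted p of 0.14. Crot, which hands shortened acyl groups to carnitine for export, ran the other way, at -0.18 in treated db/db against db/+ hearts and -0.12 in untreated db/db against db/+ hearts (adjusted p = 0.43 and 0.57). Phyh, the enzyme that starts alpha-oxidation of phytanic acid, had differences from db/+ hearts of 0.39 in treated and 0.36 in untreated db/db hearts that did not pass (adjusted p = 0.29 and 0.32). The db/+ replicate 2 stood at 3.89 for Phyh while the other 4 lay between 5.04 and 5.37.

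Ech1, a dienoyl-CoA isomerase of mitochondria and peroxisomes, could not be judged from its ratios. It had log2 ratios of 4.65, 4.56, 4.49 and 4.64 in treated db/db hearts, of 3.05, 5.15, 3.78, 4.66 and 3.28 in untreated db/db hearts and of 4.10, 2.50, 4.47, 4.26 and 4.47 in db/+ hearts. The 4 low values, untreated replicates 1, 3 and 5 and db/+ replicate 2, came from the 4 arrays on which its spot was marked as an outlier in the reference channel. The reference signal was 44783, 26897 and 42789 on those untreated arrays and 38785 on that db/+ array, against 9342 to 18138 on the other 11 arrays.

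The same 4 arrays also had the lowest mean log2 ratios of the 10 cardiomyocyte markers, at 4.97, 5.04 and 4.54 in the untreated hearts and 2.93 in the db/+ heart, against 5.40 to 7.40 elsewhere. Whether the reference signal of other bright genes, Phyh among them, was raised on these 4 arrays was not tested. The Phyh ratio was 3.89 on the db/+ array and 5.24, 5.45 and 5.16 on untreated replicates 1, 3 and 5. Untreated replicates 2 and 4 had 5.33 and 5.21. With the spots marked in either channel left out, an alternative added after the values were seen, the Ech1 difference in untreated db/db against db/+ hearts was 0.58 (SE 0.17, adjusted p = 0.065, 2 untreated and 4 db/+ samples kept), against 0.02 (SE 0.43) with them. Treated db/db against db/+ hearts gave 0.26 without them (adjusted p = 0.26) and 0.62 with them. None of these passed the test.

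**Figure D2:**
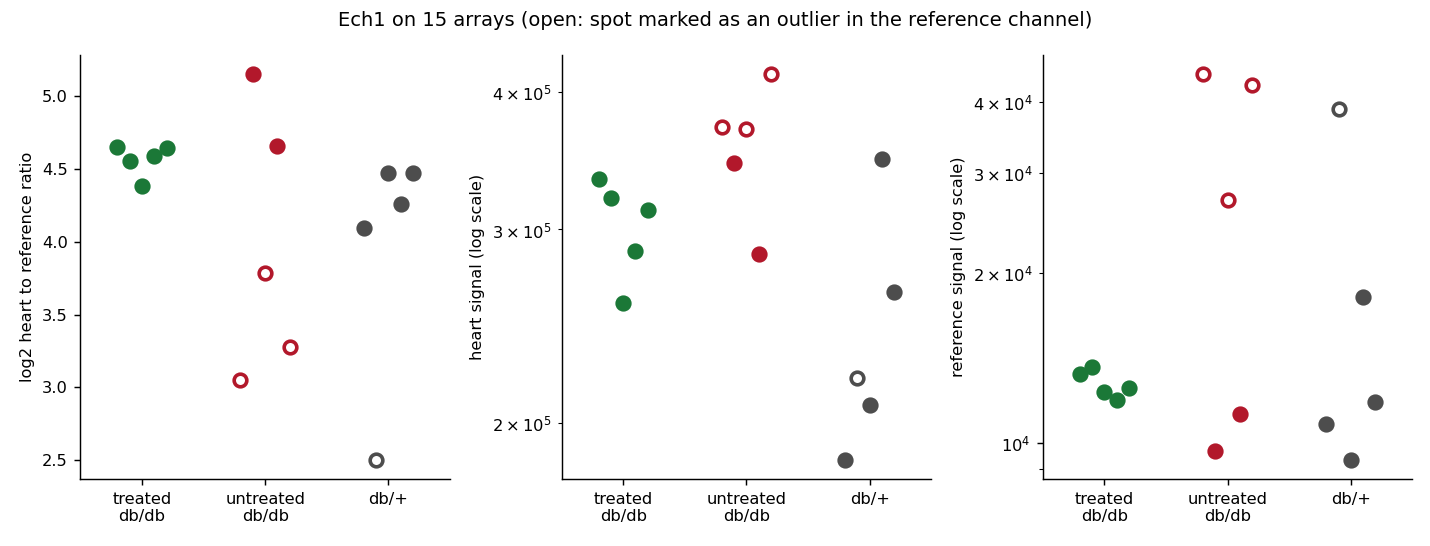
Ech1 on the 15 arrays of treated db/db, untreated db/db and db/+ hearts, as log2 heart to reference ratio (left), heart signal (middle) and reference signal (right, both signals on log axes). Open points are spots marked as outliers in the reference channel. The 4 open points are the 4 lowest ratios and the 4 highest reference signals.

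In the peroxisomal membrane, 2 of 5 transporters and channels rose. Pxmp4, a small membrane protein, had log2 ratios of 1.75, 1.70, 1.65 and 1.73 in treated db/db hearts, of 1.51, 1.70, 1.78, 1.53 and 1.75 in untreated db/db hearts and of 1.29, 1.17, 1.14, 1.12 and 1.09 in db/+ hearts. The db/+ hearts all lay below the lowest db/db heart. Pxmp4 rose 1.46-fold in treated db/db against db/+ hearts (adjusted p = 0.0021) and 1.41-fold in untreated db/db against db/+ hearts (adjusted p = 0.0026), and its second probe rose by 0.63 in treated and 0.76 in untreated db/db hearts on the log2 scale.

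Abcd3, the transporter known as PMP70 that brings branched and dicarboxylic acyl-CoA into the organelle, had log2 ratios of 1.71, 1.35, 1.82 and 1.75 in treated db/db hearts, of 1.41, 1.57, 1.57, 1.63 and 1.61 in untreated db/db hearts and of 1.04, 1.11, 1.21, 1.22 and 1.28 in db/+ hearts. Treated replicate 2 and untreated replicate 1 were the low samples of their groups but stayed above all db/+ hearts. Abcd3 rose 1.40-fold in treated db/db against db/+ hearts (adjusted p = 0.013) and 1.31-fold in untreated db/db against db/+ hearts (adjusted p = 0.029). The second call was lost without any 1 of untreated replicates 2 to 5 or db/+ replicates 2 and 4 (adjusted p up to 0.066), with scaled ratios (adjusted p = 0.060) and with array weights (adjusted p = 0.072). The first was lost with normexp (adjusted p = 0.051). A second probe rose by 0.66 in treated and by 0.62 in untreated db/db against db/+ hearts.

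The other membrane genes did not pass. Abcd2, a transporter of very long-chain acyl-CoA, had differences from db/+ hearts of 0.11 in treated and 0.06 in untreated db/db hearts with a wide spread among db/+ hearts (0.49 to 1.84). Slc25a17, a carrier of coenzyme A and related cofactors, had differences from db/+ hearts of 0.02 in treated and 0.04 in untreated db/db hearts. Pxmp2, a channel for small solutes, had differences from db/+ hearts of -0.0011 in treated and -0.09 in untreated db/db hearts. The 95% intervals for treated db/db against db/+ hearts were -0.43 to 0.64 for Abcd2, -0.21 to 0.26 for Slc25a17 and -0.27 to 0.27 for Pxmp2, so that a change of the size seen for Pxmp4 was outside the interval of Slc25a17 and Pxmp2 but not of Abcd2.

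Of the peroxins that build the organelle, Pex11a apart, 1 of 11 rose. Pex16, which with Pex3 and Pex19 places membrane proteins, had log2 ratios of 1.11, 0.96, 1.20 and 1.01 in treated db/db hearts, of 1.11, 1.01, 1.11, 0.94 and 1.14 in untreated db/db hearts and of 0.76, 0.72, 0.69, 0.92 and 0.64 in db/+ hearts. Its highest db/+ heart nearly met the lowest untreated db/db heart. Pex16 rose 1.25-fold in treated db/db against db/+ hearts (adjusted p = 0.036) and 1.24-fold in untreated db/db against db/+ hearts (adjusted p = 0.034). The first call was lost without treated replicate 1, 2 or 5 or db/+ replicate 2, 3 or 5, and the second without untreated replicate 1, 3 or 5 or db/+ replicate 2, 3 or 5, with adjusted p up to 0.093 and 0.079. Both were also lost with scaled ratios (adjusted p = 0.052 and 0.052) and in fits on the compared groups alone (adjusted p = 0.081 and 0.081). Its second probe had differences from db/+ hearts of 0.30 in treated and 0.25 in untreated db/db hearts that did not pass.

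Pex19, the chaperone and shuttle of membrane proteins, had differences from db/+ hearts of 0.27 in treated and 0.29 in untreated db/db hearts (adjusted p = 0.082 and 0.063), and its second probe passed in both comparisons with 0.37 each. Without db/+ replicate 5, the first probe passed too (adjusted p = 0.030 and 0.024). Pex3, its docking partner, had differences from db/+ hearts of 0.14 in treated and 0.15 in untreated db/db hearts that did not pass. Pex5, the receptor for most matrix enzymes, had differences from db/+ hearts of 0.28 in treated and 0.34 in untreated db/db hearts (adjusted p = 0.15 and 0.075), and that of untreated hearts passed without db/+ replicate 1 (adjusted p = 0.047). Pex7, the receptor for the few proteins with the other import signal, had differences from db/+ hearts of 0.07 in treated and 0.10 in untreated db/db hearts, which did not pass.

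The machinery that docks and recycles these receptors did not pass either. Pex13 and Pex14, the docking pair, had differences of 0.19 and 0.25 for treated db/db against db/+ hearts and of 0.12 and 0.05 for untreated db/db against db/+ hearts. Pex2 and Pex10, subunits of the ubiquitin ligase that marks the receptor for recycling, had differences of 0.18 and 0.23 for treated db/db and of -0.06 and 0.15 for untreated db/db against db/+ hearts. Pex6, an ATPase that pulls the receptor out, and Pex26, its anchor, had differences of 0.12 and 0.01 in treated db/db and of 0.34 and 0.14 in untreated db/db against db/+ hearts.

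Neither gene of ether lipid synthesis, another task of the organelle, passed. Agps, which makes the ether bond, had differences from db/+ hearts of -0.15 in treated and -0.14 in untreated db/db hearts (adjusted p = 0.28 and 0.30). Gnpat, the enzyme of the first step, had log2 ratios of 2.37, 2.20, 2.16 and 2.14 in treated db/db hearts, of 2.01, 2.03, 1.97, 2.09 and 2.04 in untreated db/db hearts and of 2.32, 1.73, 1.90, 1.99 and 2.22 in db/+ hearts. It was the 1 gene of the 31 whose treated samples all lay above the untreated ones, as did 2.07% of all tested probes, and the difference of 0.19 had an adjusted p of 0.68.

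**Figure D3:**
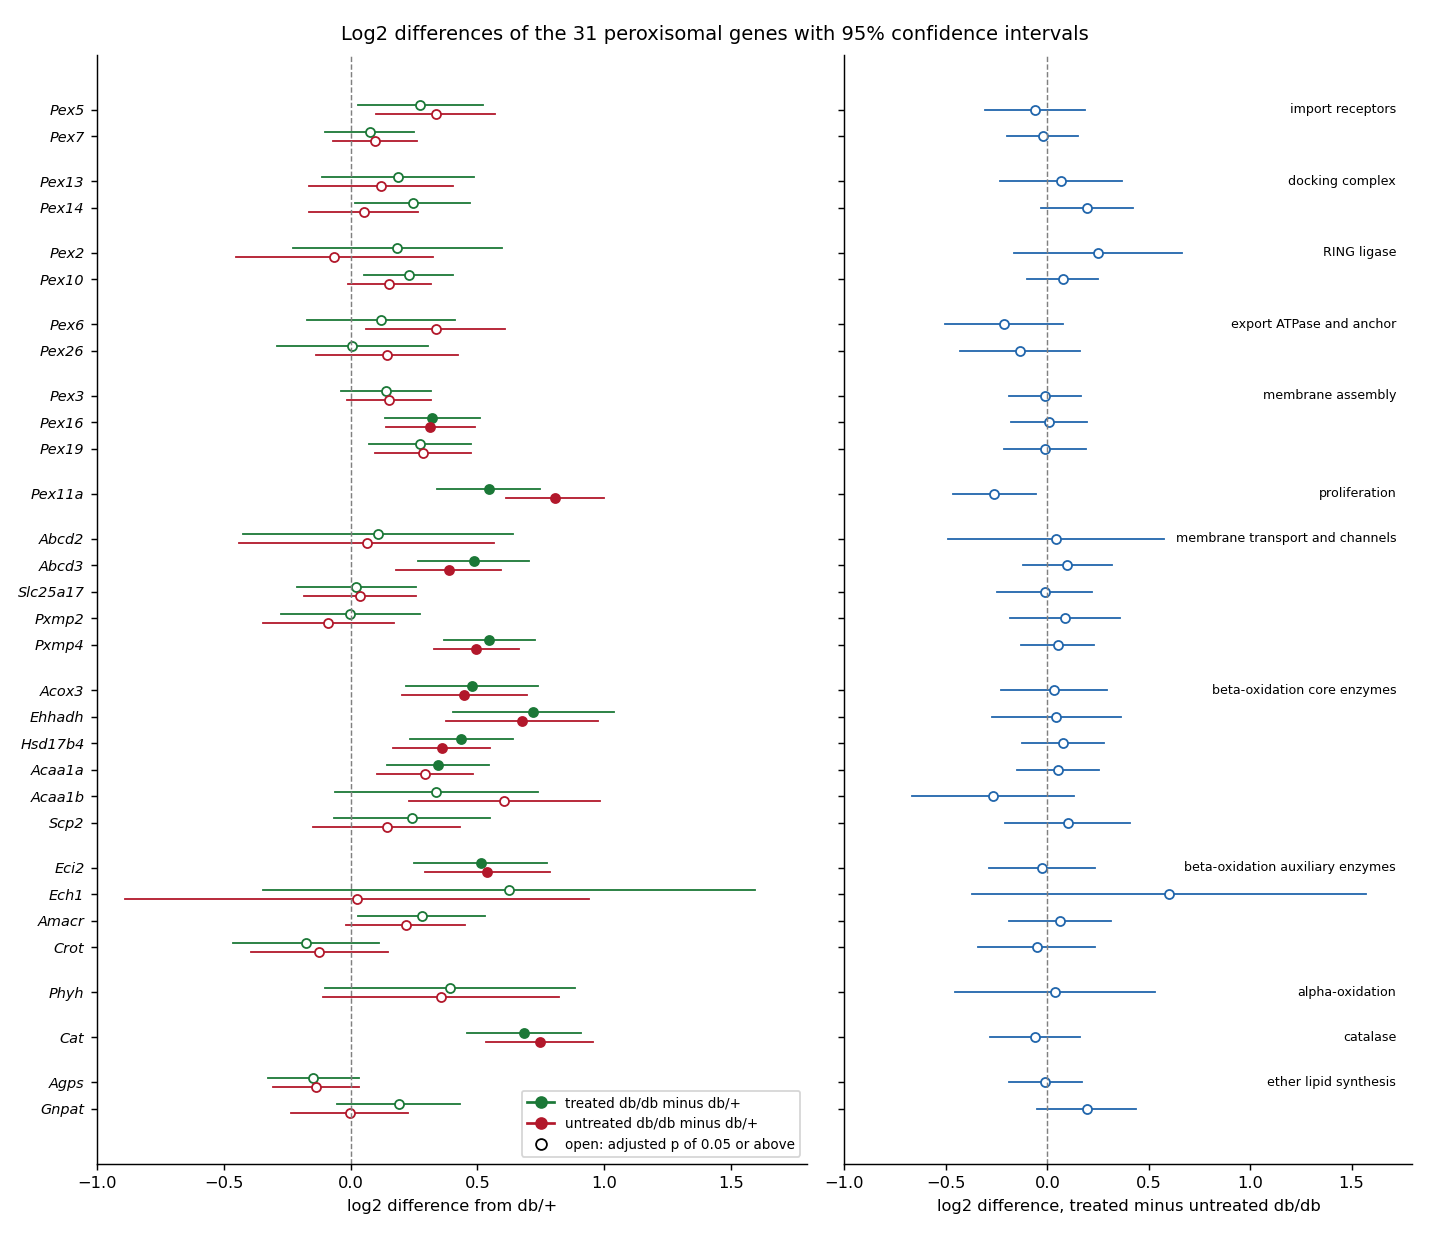
Log2 differences (horizontal axes) of all 31 genes, ordered by role, with 95% confidence intervals from the fit across all tested probes. The left panel shows treated db/db minus db/+ and untreated db/db minus db/+, the right panel treated minus untreated db/db, and filled points are genes called at an adjusted p under 0.05. The filled points lie between 0.31 and 0.80, and the right panel holds none.

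Between treated and untreated db/db hearts, the differences of the 10 called genes lay between -0.26 and 0.10. The 95% interval lay within 0.5 on either side of 0 for all 10 and for 25 of the 31 genes. For Pex2, Pex6, Abcd2, Acaa1b, Ech1 and Phyh it reached beyond, so that a change of that size was not excluded by the spread of these samples. The median difference over the 31 genes was 0.04.

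Of 13 genes with a tested second probe, its difference from db/+ hearts had the same sign as the first in 8 for treated and 9 for untreated db/db hearts. Pex13 had -0.37 in treated and -0.23 in untreated db/db hearts with the second probe, and Crot had 0.18 and 0.14, against the sign of the first probe. None of these 4 values passed, and no gene called with its first probe changed sign.

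Slide and group were partly confounded. The 4 slides held db/+ replicates 1 to 4, then db/+ replicate 5 with untreated replicates 1 to 3, then untreated replicates 4 and 5 with treated replicates 1 and 2, then treated replicates 3 to 5. On slide 2, which holds untreated db/db and db/+ hearts, all 9 called genes were higher in the untreated db/db hearts, with differences of 0.96 for Pex11a, 0.71 for Cat, 0.59 for Eci2, 0.58 for Pxmp4, 0.44 for Pex16, 0.39 for Ehhadh, 0.29 for Acox3, 0.27 for Hsd17b4 and 0.23 for Abcd3. The db/+ side of these is 1 heart. No slide holds treated db/db and db/+ hearts, so that this comparison has no value within a slide and rests on the slides that link the groups. With slide as a block, its differences were 0.88 for Pex11a, 0.78 for Cat, 0.66 for Pxmp4, 0.55 for Eci2, 0.43 for Pex16, 0.34 for Acaa1a, 0.32 for Ehhadh, 0.31 for Hsd17b4, 0.24 for Acox3 and 0.14 for Abcd3. With slide as a block, no gene of the 31 passed in any comparison, and Pex11a came closest (adjusted p = 0.065 in untreated db/db against db/+ hearts).

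Hepatocyte markers were higher in the same comparisons. Of 12 tested hepatocyte markers, 1 was called in treated db/db against db/+ hearts and 6 in untreated db/db against db/+ hearts, all higher. Serpina3k and Cps1 were tested only because they passed the filter on dim probes through db/db arrays, so their direction was not free. Alb, Ahsg and Fgb were the brightest of the list, and Apoa1, Ttr, Fga, Serpina3k and Cps1 were above background on none of the db/+ arrays, Ttr and Fga on none of the treated arrays. Every db/db array had a higher summed hepatocyte signal than every db/+ array. The mean log2 ratio of these markers did overlap between groups. It ran from 0.49 to 3.03 in treated db/db, 0.97 to 5.54 in untreated db/db and -0.29 to 1.08 in db/+ hearts. The part of the hepatocyte markers in the results was not tested beyond the values given here. The db/db array with the lowest sum, untreated replicate 4 at 2850 against up to 2477 in db/+ hearts, had the lowest Cat (2.58) and Pex11a (1.79) of the untreated hearts, both above all db/+ hearts. Untreated replicate 2, with the largest sum (174471), had the highest Cat (3.08), Ehhadh (3.17), Hsd17b4 (1.61) and Eci2 (2.32) of the untreated hearts. It was not the highest for Pex11a, Pxmp4, Abcd3, Acox3, Acaa1a or Pex16.

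Other markers also differed from db/+ hearts. Of 5 tested white adipocyte markers, Cfd had differences of -4.96 in treated and -3.55 in untreated db/db hearts (log2, adjusted p = 9.8e-05 and 0.00088). Adipoq was at least 3.69-fold lower in treated db/db hearts, where it was well above background on no array, and Lipe was higher in untreated db/db hearts. Adipoq passed the filter on dim probes without any treated array, so its direction there was not free of the filter. In each db/db group 2 of the 5 markers were called lower than in db/+ hearts, and the study lists Adipoq as lower in untreated db/db hearts too. The summed signal of the white adipocyte list overlapped between groups, at 2190 to 2832 in treated db/db, 2452 to 3451 in untreated db/db and 976 to 4185 in db/+ hearts. Of 2 tested brown adipocyte markers, Dio2 was higher in treated db/db hearts, and Ucp1 was above background on no db/db array. The summed signal was 64501 to 81271 in treated db/db, 58985 to 77767 in untreated db/db and 37690 to 54443 in db/+ hearts. Most of that sum is Cidea, with a mean heart signal of 60883. The mean log2 ratio of the list overlapped between groups, at 1.29 to 1.69 in treated db/db, 0.68 to 2.12 in untreated db/db and 0.71 to 1.66 in db/+ hearts. Of 8 tested skeletal muscle markers, only Mylpf was called, lower in both db/db groups, with overlapping sums. The median difference of these 8 from db/+ hearts was 0.16 in treated and -0.32 in untreated db/db hearts. In treated db/db hearts 5 of the 8 differences were above 0, and in untreated db/db hearts 1 was. The part of these other markers in the peroxisomal results was not tested.

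With the mean log2 ratio of the hepatocyte markers as a covariate, an alternative added after the values were seen, 7 genes were called in treated db/db against db/+ hearts and 1 in untreated db/db against db/+ hearts. The 7 were Pex11a, Cat, Ehhadh, Pxmp4, Abcd3, Hsd17b4 and Eci2. The 1 was Pex11a, with a difference of 0.65 (adjusted p = 0.023), and Cat stood at 0.51 (adjusted p = 0.055).

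**Figure D4:**
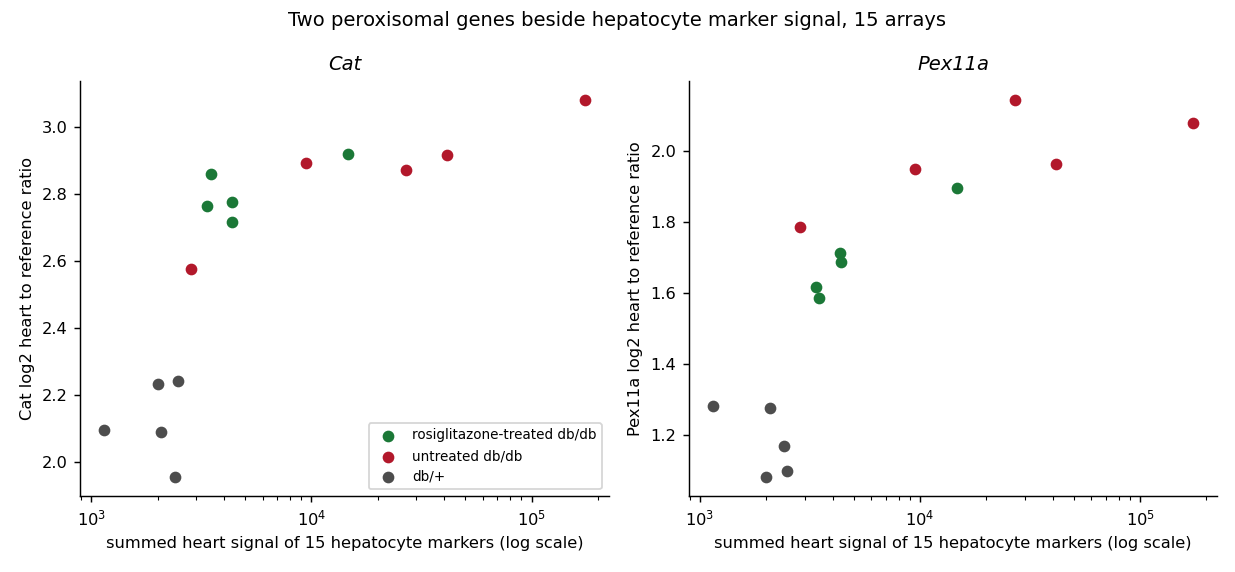
Log2 heart to reference ratio of Cat (left) and Pex11a (right) against the summed heart signal of 15 hepatocyte markers (log axis) on the 15 arrays of treated db/db, untreated db/db and db/+ hearts. All db/db arrays lie above and to the right of the db/+ arrays, and the treated arrays with sums of 3349 to 4378 have Cat ratios above 2.7. Untreated replicate 2, with the largest sum of 174471, has the highest Cat ratio, 3.08, and a Pex11a ratio of 2.08.

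Of 45 other genes of the peroxisome, all were measured and 37 tested. In treated db/db against db/+ hearts 6 rose and none fell, and in untreated db/db against db/+ hearts 8 rose and none fell, which made 10 genes in all. Of all tested probes, 4.41% and 4.28% rose in these comparisons, and 4.14% and 3.33% fell. None of the 37 genes passed between the db/db groups. Their median difference was 0.22 in treated db/db against db/+ hearts and 0.16 in untreated db/db against db/+ hearts, with 26 and 24 of 37 differences above 0. With slide as a block these medians were 0.25 and 0.08.

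Those named here add other steps. Mlycd, malonyl-CoA decarboxylase, which is also in mitochondria and cytosol, rose by 0.49 in treated and 0.65 in untreated db/db against db/+ hearts (adjusted p = 0.017 and 0.0027). Nudt12, a hydrolase of nicotinamide nucleotides, rose by 0.58 in treated and 0.36 in untreated db/db hearts (adjusted p = 0.004 and 0.035), and Pex11g, a relative of Pex11a, rose by 0.46 in treated and 0.39 in untreated db/db hearts (adjusted p = 0.022 and 0.034).

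Tysnd1, the protease that trims imported oxidation enzymes, rose by 0.62 in treated db/db against db/+ hearts (adjusted p = 0.021), and its difference of 0.47 in untreated db/db against db/+ hearts did not pass (adjusted p = 0.055). Dhrs4, a carbonyl reductase, rose by 0.52 in untreated db/db against db/+ hearts (adjusted p = 0.022), with a difference of 0.23 in treated db/db against db/+ hearts (adjusted p = 0.27). The difference between those effects did not pass for either gene in treated against untreated db/db hearts (adjusted p = 0.82 and 0.55).

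Of 19 genes of mitochondrial fatty acid oxidation, 4 rose in treated db/db against db/+ hearts and 7 in untreated db/db against db/+ hearts, with medians of 0.48 and 0.52. With slide as a block these medians were 0.26 and 0.17. Of 14 PPAR target genes outside the peroxisome, 3 rose in treated db/db against db/+ hearts and 5 in untreated db/db against db/+ hearts, with medians of 0.38 and 0.91. Between treated and untreated db/db hearts the median over these 14 genes was -0.43, with 2 differences above 0, and none passed. An unadjusted p under 0.05 was found there for 6 of the 14 and for 8.76% of all tested probes. With slide as a block the medians against db/+ hearts were 0.45 in treated and 0.73 in untreated db/db hearts. Between the db/db groups the median was then -0.34.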

How the data were processed

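The members and gene lists were chosen with earlier results of these data known. Per the file headers, the authors extracted the intensity of both channels with Agilent Feature Extraction 9.5.1.1, with its background subtraction and LOWESS dye correction. For each of 45018 spots they deposited the log10 ratio of the heart channel over the reference channel. The series value table holds the same ratios. They were converted to log2. Of the 43379 spots that are not controls, those marked as outliers in the heart channel (0.196% to 2.08% per array) were left out, and repeated spots were averaged by probe. Precision is limited by how many arrays there are.

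Of 41174 probes, 27593 had a heart signal well above background in 4 or 5 arrays of some group. These were tested with limma 3.58.1 (lmFit and eBayes; R 4.3.3) on all 3 groups in 1 fit of 14 samples with 11 residual degrees of freedom, with Benjamini-Hochberg adjustment over all tested probes. The study's methods name SAM, which was not run. The heart channels of treated replicates 3 and 4 had a spread of 0.115 (scaled median absolute deviation of log2 differences over 21458 probes), against 0.233 to 0.569 for other pairs of a group. In 99 of 105 pairs of arrays the reference channel differed at least as much, so the 2 were averaged. The study states that RNA was isolated from separate hearts, 5 in each group.

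All 31 members are accounted for, and those called in any comparison are given in every sample. Of the other peroxisomal genes, up to 6 called ones by smallest p were to be named, and 1 of these is not reported here. Of the hepatocyte markers, the 3 brightest genes are named. The same was planned for other marker lists that moved, but there the genes named were picked mostly from those called, not by brightness. The alternatives were normexp background with an offset of 50 and loess, the value table, scaling or centring between arrays, no filter or a stricter one, slide as a fixed or random block, replicate number as a block, treated replicates 3 and 4 as separate mice, a fit on the compared groups alone, weights for arrays, a looser threshold (adjusted p under 0.10), the second brightest probe, omitting db/+ replicate 3 together with untreated replicate 2, and omitting single arrays. Omitting spots marked in either channel and the hepatocyte covariate were added after the data were seen. Steps were tested on simulated data. The random block used statmod 1.5.0 and the figures Python 3.11.15, numpy 2.4.6 and matplotlib 3.10.9. Accessions of all 31 members matched RefSeq.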

Additional observations from a re-analysis of the deposited data

Results flagged for a closer look

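In 93 groups of 4 or 5 samples, 1 for each of the 31 genes in each group, the highest or lowest sample stood far from the rest in 6, and chance alone marks about 1 in 20. In untreated db/db hearts, Abcd3 was low in replicate 1 (1.41, next value 1.57) and Pxmp2 was low in replicate 5 (3.54, next value 3.90). In db/+ hearts, Slc25a17 was high in replicate 3 (-1.89, next value -2.15) and Amacr was low in replicate 3 (1.1, next value 1.53). Ech1 (2.50, next value 4.10) and Phyh (3.89, next value 5.04) were low in db/+ replicate 2, an array whose Ech1 spot was marked in the reference channel and on which 2.08% of the spots were marked as outliers in the heart channel.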

How the results depend on the processing

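No called difference of the 31 genes changed sign under any alternative, where sign changes of differences that passed in neither setting are not counted. Over all tested probes, 2359 were called in treated db/db against db/+ hearts, 0 in treated against untreated db/db hearts (2416 at an unadjusted p under 0.05) and 2102 in untreated db/db against db/+ hearts. Below, values stand in this order of comparisons. With slide as a fixed block 4 and 34 probes passed against db/+ hearts, 0 and 0 of the genes, and the treated median was 0.23. With slide as a random block (consensus correlation -0.114) 5094, 1 and 4986 probes and 12, 0 and 14 genes passed. Normexp gave 1443 probes in treated db/db against db/+ hearts (1001 higher and 442 lower, against 1218 and 1141), 2071 higher and 926 lower in untreated db/db against db/+ hearts (against 1182 and 920), and medians of 0.45, -0.015 and 0.41. With treated replicates 3 and 4 as separate mice 3722 and 1 probes passed in the treated comparisons, and with array weights 1 passed between the db/db groups. An adjusted p under 0.10 gave 4439, 1 and 3998 probes. For untreated db/db against db/+ hearts, a fit on these groups alone gave 915 probes, leaving out db/+ replicate 3 with untreated replicate 2 gave 1339 probes and 5 genes, and the hepatocyte covariate gave 206 probes and 1 gene. Omitting spots marked in either channel gave a median of 0.29 there. The cause of these shifts was not tested.

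Leaving out 1 array gave 1065 to 2838, 0 to 10 and 1152 to 2703 probes, 6 to 10, 0 to 0 and 6 to 12 genes, and medians of 0.24 to 0.30, 0.0055 to 0.060 and 0.17 to 0.26. The extremes of the probe counts came without treated replicate 5 and db/+ replicate 1, without untreated replicate 4, and without db/+ replicates 4 and 1. Pex11a, Pxmp4, Ehhadh and Cat passed against db/+ hearts in both db/db groups whichever 1 array was left out. With the replicate block and treated replicates 3 and 4 as separate mice, 2448, 0 and 1618 probes and 9, 0 and 6 genes passed, against 3722, 1 and 2537 probes and 12, 0 and 12 genes in the same fit with no block. Same-numbered samples did not deviate together (correlations -0.232 to 0.038 in 15 pairs), 0 of 15 arrays correlated best with their own number, and the numbers were not taken as pairs.

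A total of 5 arrays a group, partly split by slide, limits what can be told apart, and dim probes on the db/+ arrays bound the hepatocyte markers.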
